A study of Mus musculus with 6 samples.

Results

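Mitotic GL261-GSCs cells are the cells of the GL261-GSCs cultures with the largest share of RNA from 8 genes of late G2 and mitosis. GL261 is a mouse glioma line, and GL261-GSCs are its cultures labelled as glioblastoma stem cells. A barcode was kept as a cell at 8000 or more unique molecular identifiers (UMIs, counted RNA molecules), 500 or more genes and a mitochondrial share below 10% of its UMIs. The score of a cell was the summed UMIs of Ube2c, Ccnb1, Ccnb2, Cdc20, Cenpa, Plk1, Aurka and Cenpf divided by its total UMIs. Mitotic cells were chosen by this score, as the highest 10% in each library, and the lowest 50% of the same library, called low-score cells below, were the comparison. The measured UMIs of those 8 genes and the total UMIs are thus what chose the members, among barcodes within the limits, that on the mitochondrial share included. This gave 1489 mitotic cells of 14893 GL261-GSCs cells that passed the limits, and 22868 cells passed in the whole series. Replicates 1 to 4 held 360, 464, 487 and 178 mitotic cells and 1801, 2319, 2433 and 892 low-score cells.

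The series holds 6 single-cell 5′ RNA libraries, 4 of GL261-GSCs grown in a defined medium for glioma stem cells and 2 of GL261 grown in a medium with fetal calf serum that the labels call a differentiation medium. Both are cultures of a brain tumour line, are named after the same line, and have no further allele or agent in the labels. Each group is 1 line, so its replicates do not cover differences between tumours. The labels do not say that the replicates of a culture came from separate cultures, so the p-values below measure only the spread between these libraries, which may be technical. They also do not settle whether whole cells or nuclei were loaded after the detergent step.

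A dividing cell copies its DNA in S phase, then builds cyclin B, its kinase partner Cdk1 and the spindle machinery during G2, and separates its chromosomes in mitosis. The anaphase-promoting complex, activated by Cdc20 and later by the Cdc20 relative Fzr1, marks cyclin B and other mitotic proteins for destruction together with the ubiquitin enzymes Ube2c and Ube2s. Many G2 and mitosis genes are switched by a repressor and activator complex that reads a short promoter element called CHR, while many S phase genes are controlled by E2F factors, which read another element.

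The rule's own genes are given as a description, with no test. Scores are in UMIs of the 8 genes per 10000 UMIs of a cell. The median mitotic cell scored 48.1, 53.5, 60.8 and 62.7 in replicates 1 to 4, and the median low-score cell 5.37, 6.50, 3.53 and 2.01. A median mitotic cell held 95.5, 80.0, 90.0 and 78.5 UMIs of these genes, against 8, 8, 4 and 2 in a median low-score cell. At the limit, the last cell inside stood at 40.9, 45.6, 50.5 and 50.8 and the first cell outside at 40.9, 45.6, 50.4 and 50.7. The limit is a percentile, so these values say nothing of whether the mitotic cells form a cluster of their own. Ube2c, the enzyme that starts ubiquitin chains on mitotic proteins, stood at 1891, 2063, 2561 and 2619 CPM (UMIs of the gene per 1000000 UMIs, from sums over the cells of a library) in mitotic cells and 141, 144, 108 and 70.1 in low-score cells. Ccnb1, which encodes cyclin B1, stood at 195, 195, 210.4 and 213 CPM and 17.5, 20.1, 10.0 and 4.94 CPM. For Cdc20, the activator of the anaphase-promoting complex, the values were 579.5, 641, 767 and 855 CPM and 79.1, 92.1, 42.8 and 23.8 CPM. Plk1, a kinase that drives entry into mitosis, had 257, 269, 367 and 342 CPM and 22.0, 29.3, 14.9 and 8.96 CPM. For all 4 of these genes the low-score cells were lowest in replicate 4, and no low-score value reached a mitotic value. Free RNA in barcodes of 100 to 999 UMIs carried the 8 genes at a summed 1610 to 2201 CPM.

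The label was checked with 13 genes of G2 and mitosis that the rule did not use, among them Mki67, Top2a, Ccna2, Cdk1 and Bub1, after thinning each cell to 8000 UMIs. The median mitotic cell held 30, 34, 40 and 42 UMIs of these genes in replicates 1 to 4, and the median low-score cell 5, 6, 4 and 2. Of the mitotic cells, 314 of 360 (87.2%), 408 of 464 (87.9%), 476 of 487 (97.7%) and 177 of 178 (99.4%) lay above the 95th percentile of the low-score cells of their library. For 7 S phase genes (Mcm2, Mcm5, Pcna, Cdc6, Ccne2, Gins2 and Slbp) the median mitotic cell held 2 UMIs in every replicate, against 4, 6, 4 and 1 in low-score cells. The 13 markers went with the score in every replicate. They are genes of G2 and mitosis, like those of the rule, so they do not tell cells in mitosis from cells in G2. The cells called mitotic here may include both. The median low-score cell held more UMIs of the 7 S phase genes than the median mitotic cell in replicates 1 to 3. Replicate 4 went the other way. Whether single low-score cells were in S phase was not tested.

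**Figure D1:**
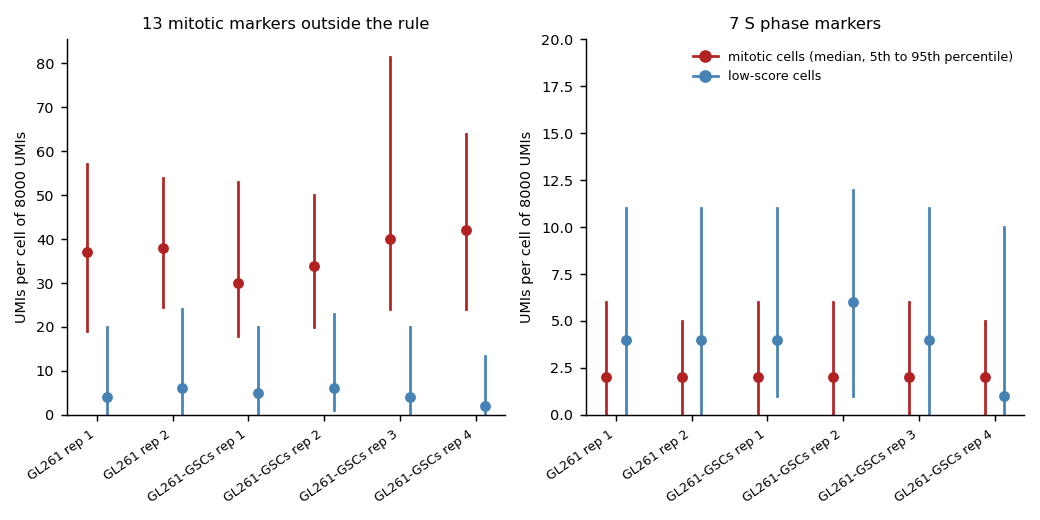
UMIs per cell of 13 mitotic markers outside the rule (left) and 7 S phase markers (right) after thinning to 8000 UMIs, by library; points are medians and bars run from the 5th to the 95th percentile of cells. Mitotic medians of 30 to 42 UMIs in GL261-GSCs stand against 2 to 6 in low-score cells, and S phase medians are 2 UMIs in mitotic cells.

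Mitotic cells held more UMIs than low-score cells. Their median was 19482, 14584, 14251 and 12096 UMIs, and that of low-score cells 15604, 12209, 12222 and 10304.5, a ratio of 1.25, 1.19, 1.17 and 1.17. Total UMIs are the denominator of the score, so this ratio is a description. The mitochondrial share of UMIs had a median of 0.982% ± 0.0432 (SD, n = 4) in mitotic cells and 1.09% ± 0.0607 in low-score cells. It was lower in mitotic cells in 4 of 4 libraries, a difference of -0.111 percentage points (SD 0.0283), with an exact sign-flip permutation p of 0.13, 2-sided, the smallest that 4 pairs can give (0.25 after Benjamini-Hochberg adjustment over both measures tested this way). At 8000 UMIs a median of 3179 ± 74.3 genes was detected in mitotic cells and 3145 ± 99.7 in low-score cells, a difference of 34.1 (SD 32.4, n = 4, exact permutation p = 0.25). Mitotic cells had more genes in 3 of 4 libraries and fewer in replicate 1 (3223.5 against 3226), and without replicate 3 the difference was 21.2. Neither difference passed a threshold of 0.05, which this design cannot reach. The mitochondrial share was limited by the rule and has the same denominator as the score, so its difference is not independent of how cells were chosen. Pairs of libraries shared 10 to 36 cell barcodes, and 0 or 1 of those were mitotic in both.

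Promoters are shown for 6 genes to set the elements of the genes that rose beside those of genes that fell. Each is the 150 bases before the gene's start in RefSeq on GRCm38.p6, 5′ to 3′ on the gene's strand, and capitals mark every match, on either strand, to the CHR element (TTTGAA), the CCAAT box or the E2F element (TTTNNCGC). Cdc20 (chr4:118437344-118437493, reverse strand) is a gene of the rule. Cdk1 (chr10:69352913-69353062, reverse strand), Mki67 (chr7:135716380-135716529, reverse strand) and Top2a (chr11:99024190-99024339, reverse strand) rose in mitotic cells, and Mcm5 (chr8:75109359-75109508, forward strand) and Mcm6 (chr1:128359706-128359855, reverse strand) fell.
Cdc20: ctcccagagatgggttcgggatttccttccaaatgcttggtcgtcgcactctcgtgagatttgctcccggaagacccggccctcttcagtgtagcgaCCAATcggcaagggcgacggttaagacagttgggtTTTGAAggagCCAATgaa
Cdk1: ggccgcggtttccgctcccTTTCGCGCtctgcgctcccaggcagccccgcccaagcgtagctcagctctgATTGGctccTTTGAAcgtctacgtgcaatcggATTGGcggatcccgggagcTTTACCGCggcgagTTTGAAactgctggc
Mki67: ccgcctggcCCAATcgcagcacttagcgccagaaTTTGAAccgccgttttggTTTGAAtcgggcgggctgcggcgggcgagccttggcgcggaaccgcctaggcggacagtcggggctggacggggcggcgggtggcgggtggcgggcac
Top2a: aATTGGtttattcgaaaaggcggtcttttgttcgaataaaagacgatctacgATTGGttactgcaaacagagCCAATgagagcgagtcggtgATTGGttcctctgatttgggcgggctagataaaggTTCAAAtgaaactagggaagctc
Mcm5: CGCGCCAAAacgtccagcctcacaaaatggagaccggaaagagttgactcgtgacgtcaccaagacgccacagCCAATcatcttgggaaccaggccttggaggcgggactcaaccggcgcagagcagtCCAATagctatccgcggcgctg
Mcm6: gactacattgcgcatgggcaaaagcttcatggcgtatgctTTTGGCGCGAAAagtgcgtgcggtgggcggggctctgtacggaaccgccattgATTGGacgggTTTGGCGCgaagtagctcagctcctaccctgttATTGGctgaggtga
The 4 genes with high mitotic levels hold a CHR in this stretch, and Mcm5 and Mcm6 hold none. E2F matches are present in both of these replication genes and also, in 2 places, in Cdk1, which rose. A CCAAT box is present in all 6 stretches. The 6 genes were picked as examples, not by a rule. In the wider windows used below, 5 of the 12 largest rises (41.7%) hold a CHR, beside 11.5% of all tested genes with a window. Most tested genes thus lack a CHR, as Mcm5 and Mcm6 do in the printed stretch. In Mcm5 and in Mcm6 a forward and a reverse E2F match overlap and appear as 1 run of capitals, and the forward match in Mcm5 starts before the printed stretch.

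Among 12528 genes tested with the edgeR quasi-likelihood test, mitotic against low-score cells with the library as a block and leaving out the 8 genes of the rule, 4018 (32.1%) passed an adjusted p (Benjamini-Hochberg) of 0.05. The calls were 2009 genes higher (16.0%) and 2009 lower (16.0%), with 257 (2.05%) higher and 300 (2.39%) lower by at least 2-fold, and over every tested gene the log2 fold change had a median of -0.01. Scaling by library size alone in place of TMM gave 1511 higher and 2556 lower, so the even split depends on the scaling. Without replicate 1 there were 2485 calls and without replicate 3 there were 2042, of which 2419 and 2004 were also called with all libraries. The calls describe cells sorted on 8 genes that share the cells and the total UMIs with every other gene.

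Among called genes outside the rule with 5 or more in average log2 CPM, the 12 largest rises were led by Aspm and Kif23. Aspm, a protein of the spindle poles, stood at 207, 197, 319 and 329 CPM in mitotic cells of replicates 1 to 4 and 16.4, 22.8, 19.7 and 13.7 CPM in low-score cells. Aspm lies at chr1:139454772-139494091 (forward strand). Its log2 fold change was 3.79 (SE 0.19, edgeR adjusted p = 2.75e-06), and the groups did not overlap. Kif23, a motor of the central spindle, rose by 3.58 (SE 0.19) and Nusap1, which bundles spindle microtubules, by 3.57 (SE 0.19) on the log2 scale. Cdc25b, a phosphatase that switches on Cdk1, stood at 109, 119.8, 164 and 191 CPM against 12.3, 16.7, 14.1 and 10.8 CPM. Its log2 fold change was 3.35 (SE 0.16, edgeR adjusted p = 2.70e-06). Arl6ip1, an endoplasmic reticulum membrane protein and not a spindle gene, stood at 914, 926, 1448 and 1903 CPM against 117, 131, 139 and 160.3 CPM and had the smallest adjusted p of these 12, 7.12e-07 by edgeR. The other 7 were the F-box cyclin Ccnf (3.41), the kinetochore motor Cenpe (3.38), the spindle motor Kifc1 (3.26), the hyaluronan receptor and spindle protein Hmmr (3.24), Sapcd2 (3.16), Gas2l3 (3.09) and Troap (3.07), all log2 fold changes.

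Of 21 regulators of mitotic entry 19 rose (90.5%) and 1 fell (4.76%), beside 16.0% of all genes in each direction. Their median log2 fold change was 1.68 beside -0.01 for all genes tested. Cdk1 stood at 548, 586, 693 and 733 CPM in mitotic cells and 125, 147, 124 and 75.1 CPM in low-score cells, a log2 fold change of 2.45 (SE 0.18). Ccna2, which encodes cyclin A2, rose by 2.76 (SE 0.24), and Bora, which helps Aurora A activate Plk1, by 2.27 (SE 0.11). The phosphatase Cdc25c (3.20), the kinase Nek2 (3.02) and the transcription factor Foxm1 (1.68) rose as well, and so did Wee1 (1.23), a kinase that holds Cdk1 back. Mybl2, a transcription factor that primes G2 genes during S phase, was the 1 member that fell, with a log2 fold change of -0.51 (SE 0.09, edgeR adjusted p = 0.00305). With cells split into 10 equal groups by score, its level was highest between the third and the fifth group, depending on the library.

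Of the anaphase-promoting complex and its regulators, 12 of 19 rose (63.2%, beside 16.0% of all genes) and 7 did not pass. The list median was 0.21. Fzr1, the activator that follows Cdc20, stood at 213, 237, 291 and 311 CPM in mitotic cells and 47.0, 50.3, 44.1 and 42.1 CPM in low-score cells, with a log2 fold change of 2.49 (SE 0.12, edgeR adjusted p = 2.52e-06). Fzr1, at chr10:81366222-81378516 (reverse strand), had low-score values that lay close together across the 4 libraries. Espl1, the protease that opens the cohesin ring, rose by 2.49 (SE 0.20), its inhibitor Pttg1 by 1.87 (SE 0.20), and the chain-extending enzyme Ube2s by 1.29 (SE 0.12). Among core subunits Cdc27 rose by 0.88 and Cdc23 by 0.73, whereas Anapc11, the catalytic subunit, rose by 0.18 and Anapc4 did not pass (log2 fold change -0.01, edgeR adjusted p = 0.96).

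Of 14 genes of the spindle assembly checkpoint, which holds anaphase until every chromosome is attached, 13 rose (92.9%, beside 16.0% of all genes). The list median was 1.49. Bub1b stood at 97.6, 97.4, 124 and 107 CPM in mitotic cells and 19.4, 22.7, 10.7 and 7.83 CPM in low-score cells. Its log2 fold change was 2.81 (SE 0.24), next to 2.15 for Bub1, 1.69 for Bub3, 2.25 for the scaffold Knl1 and 1.29 for the kinase Ttk. Zw10 did not pass (log2 fold change -0.04, edgeR adjusted p = 0.839). All 4 genes tested of the chromosomal passenger complex, which corrects faulty attachments, rose: Cdca8 by 2.46, Aurkb by 2.23, Birc5 by 2.10 and Incenp by 1.97, with a median of 2.16. Of 29 kinetochore and centromere genes 22 rose (75.9%, beside 16.0% of all genes) and 7 did not pass, with a median of 1.04. Spc25, an outer kinetochore subunit, rose by 2.69 (SE 0.17) and its partner Ndc80 by 1.63 (SE 0.25).

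Spindle motors and microtubule proteins were the list with the highest median, 2.61. Of 29 genes 28 rose (96.6%, beside 16.0% of all genes), 26 of them by at least 2-fold (beside 2.05% of all genes). Kif2c, a motor that shortens microtubules at kinetochores, stood at 64.2, 60.2, 64.6 and 63.9 CPM in mitotic cells and 6.37, 7.56, 5.02 and 1.13 CPM in low-score cells, with a log2 fold change of 3.53 (SE 0.24). The tubulin genes Tuba1c (2.96) and Tubb4b (2.89) rose in the same list. Tubulin genes are close copies of each other, so reads between them are uncertain. Kif2a, a relative of Kif2c, did not pass (log2 fold change 0.12, edgeR adjusted p = 0.19). Of 15 cytokinesis genes tested 9 rose (60%) and 2 fell (13.3%), beside 16.0% of all genes in each direction, with a median of 1.98. The exchange factor Ect2 (2.70), the central spindle protein Prc1 (2.89) and the motor Kif20a (2.86) rose, and the septins Sept2 (-0.48) and Sept9 (-0.26) fell. Condensin, cohesin and topoisomerase genes rose in 12 of 18 (66.7%, beside 16.0% of all genes), with a median of 0.58. Top2a, the enzyme that untangles sister DNA, stood at 856, 888, 1335 and 1442 CPM against 204, 246, 223 and 139.7 CPM and the condensin subunit Smc4 rose by 1.80. The cohesin subunits Smc3 (0.08) and Stag2 (0.07) did not pass.

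**Figure D2:**
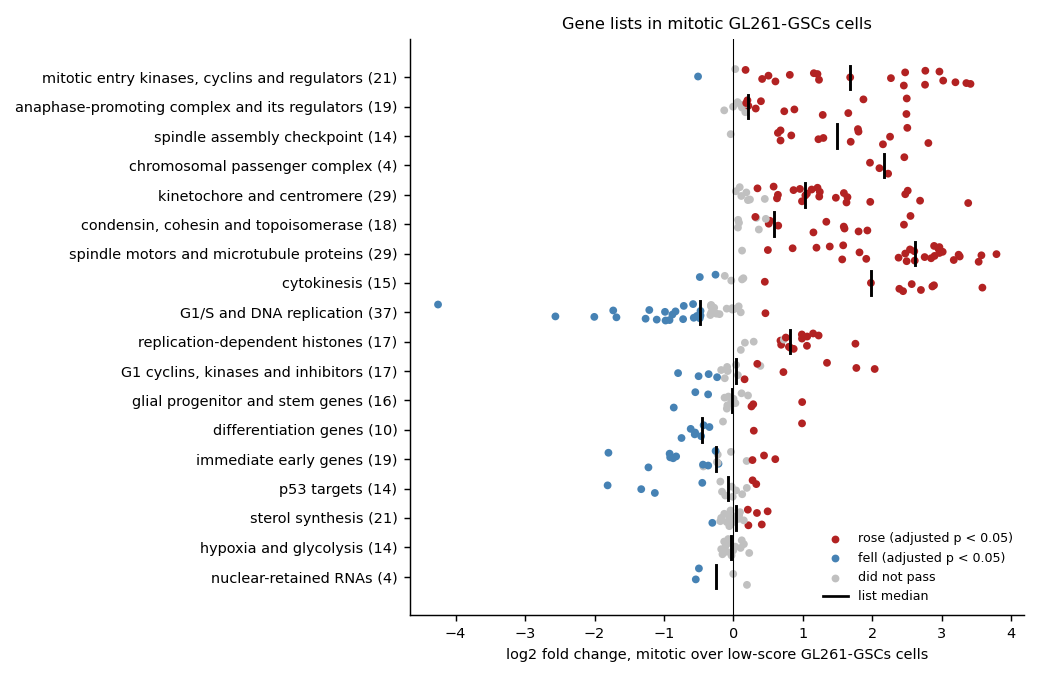
Log2 fold change of each tested gene in mitotic over low-score GL261-GSCs cells, by gene list, with the number tested in brackets; red genes rose, blue genes fell, grey genes did not pass an adjusted p of 0.05, and black bars are list medians. Spindle motors have the highest median (2.61) and G1/S genes the lowest of the lists shown (-0.48).

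Spindle and kinetochore genes had larger ratios in replicates 3 and 4 than in replicates 1 and 2. The median log2 ratio of the spindle list was 2.34, 1.98, 2.87 and 3.60 in replicates 1 to 4, and that of the kinetochore list 0.81, 0.64, 1.12 and 1.96. The anaphase-promoting complex list did not share this order, at 0.25, 0.14, 0.24 and 0.41. The low-score cells of replicate 4 had the lowest scores, with a median of 2.01 per 10000 UMIs, and those of replicate 2 the highest, 6.50. The part of this in the larger ratios was not tested.

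Genes of the G1/S transition and DNA replication were lower, with a median of -0.48. Of 37 tested 21 fell (56.8%) and 1 rose (2.70%), beside 16.0% of all genes in each direction. Ung, a DNA glycosylase that removes uracil, stood at 3.46, 2.84, 1.47 and 2.84 CPM in mitotic cells and 68.8, 54.2, 36.1 and 23.4 CPM in low-score cells, a log2 fold change of -4.25 (SE 0.14, edgeR adjusted p = 5.55e-07). Its mitotic values rest on 60 UMIs over the 4 libraries, and it lies at chr5:114130386-114139323 (forward strand). Cdc6, which loads the replicative helicase, stood at 5.47, 9.65, 7.49 and 7.10 CPM against 47.2, 47.2, 44.4 and 29.4 CPM. It fell by 2.56 on the log2 scale (SE 0.14). Ccne2 and Ccne1, the E cyclins that start S phase, fell, with log2 fold changes of -2.0 (SE 0.16) and -1.68 (SE 0.14). The helicase genes Mcm6 (-1.26), Mcm4 (-1.10) and Mcm2 (-0.98), the sliding clamp Pcna (-0.57) and the S phase regulator E2f1 (-1.21) fell too. Rrm1, a subunit of ribonucleotide reductase, was the 1 member that rose, by 0.46 (SE 0.14, edgeR adjusted p = 0.0335).

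This list differed between libraries in the size and sign of its median, which was -0.77, -0.74, -0.46 and 0.09 in replicates 1 to 4, and -0.64 when replicate 4 was left out of the fit. In low-score cells of replicate 4 the level of Pcna was 45.1 CPM, next to 44.0 CPM in its mitotic cells, while in replicate 1 the values were 90.6 and 55.1 CPM. Ung, Cdc6 and Ccne2 had lower mitotic than low-score values in every library, replicate 4 included.

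Replication-dependent histone genes, which are made in bulk during S phase, did not follow the G1/S list. Of 17 tested 13 rose (76.5%, beside 16.0% of all genes) and 4 did not pass, with a median of 0.82. Hist1h4d stood at 196, 215, 198 and 225 CPM in mitotic cells and 113, 117, 87.2 and 82.2 CPM in low-score cells, a log2 fold change of 1.06 (SE 0.10). Hist1h3e rose by 0.99 (SE 0.11) and Hist1h2ae by 1.76 (SE 0.29), while Slbp, which binds the end of histone messages, fell by 0.83. Histone genes are near-identical copies and most of their messages lack a poly(A) tail, so counts per gene are uncertain. H2afx, a variant histone outside this list, stood at 209, 246, 258 and 355 CPM against 35.2, 45.3, 34.7 and 34.5 CPM, a log2 fold change of 2.79 (SE 0.13, edgeR adjusted p = 2.52e-06). It lies at chr9:44334694-44336077 (forward strand).

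The lists peaked at different places along the score. With the cells of a library split into 10 equal groups by score, and each gene divided by its mean over the groups, the spindle list went from 0.237 ± 0.0743 (SD, n = 4) in the lowest group to 2.39 ± 0.372 in the mitotic cells. The G1/S list stood at 0.742 ± 0.104 in the mitotic cells, and its highest group differed between libraries: the third in replicates 1 and 2 (1.30 and 1.33), the fourth in replicate 3 (1.26) and the fifth in replicate 4 (1.38). In the lowest group it stood at 0.943, 0.929, 0.705 and 0.463 in replicates 1 to 4, so that replicates 1 and 2 lay well above their mitotic cells (0.655 and 0.682) there and replicates 3 and 4 below theirs (0.745 and 0.887). Histones were highest in the ninth group, 1.47 ± 0.232, and were at 1.33 ± 0.243 in mitotic cells, with the ninth group above the mitotic cells in 4 of 4 libraries. The condensin and cohesin list was flat over the last 3 groups, 1.31 ± 0.185, 1.30 ± 0.209 and 1.30 ± 0.166.

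**Figure D3:**
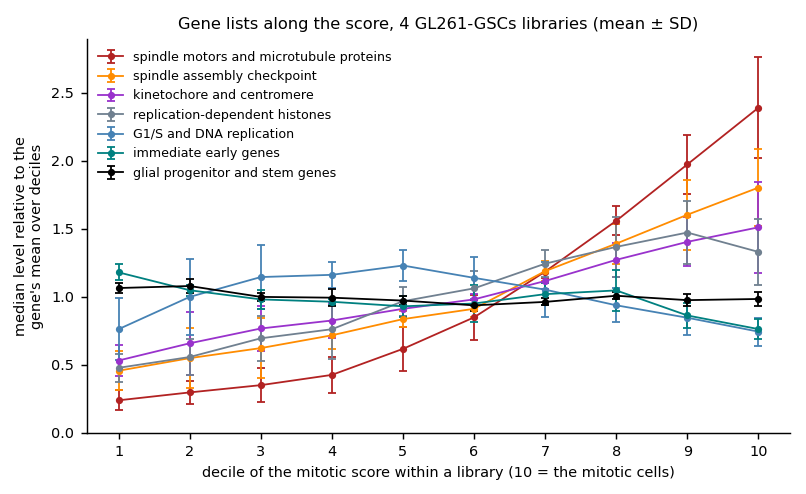
Median level of 7 gene lists, relative to each gene's mean, across 10 equal groups of cells ordered by the mitotic score within a library (10 = mitotic cells); points are means and bars SDs over 4 GL261-GSCs libraries. The spindle list reaches 2.39 in the mitotic cells, and the G1/S list stands at 0.742 there, below its middle groups.

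Within the mitotic cells, the upper 50% by score were set against the lower 50% of the same library, as a description of how members vary. Cdkn2c was higher in the upper cells by 0.57 on the log2 scale, Cdc25c by 0.47, Arl6ip1 by 0.39 and H2afx by 0.36, each in 4 of 4 libraries. Bub1 (0.03) and Bub1b (0.06) differed by little, Espl1 was at -0.11, and the replication genes Mcm6 (-0.31) and Cdc6 (-0.27) were lower in the upper cells in 4 of 4 libraries.

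Genes that hold cells in or take them through G1 were called in both directions: 6 of 17 tested rose (35.3%) and 4 fell (23.5%), beside 16.0% of all genes in each direction, with a median of 0.04 (-0.03 against the lowest 25% of the score, -0.04 without replicate 3). Cdkn2c and Cdkn2d, inhibitors of the cyclin D kinases, were among those that rose. Cdkn2c stood at 33.8, 40.3, 54.3 and 56.3 CPM in mitotic cells and 10.4, 11.7, 9.97 and 11.6 CPM in low-score cells, a log2 fold change of 2.03 (SE 0.13), and Cdkn2d at 87.1, 87.1, 140.1 and 187 CPM against 29.2, 30.6, 37.6 and 42.3 CPM, a log2 fold change of 1.77 (SE 0.10). Cdkn1b, which encodes the inhibitor p27, rose by 0.72 (SE 0.11). Cdkn1a, which encodes p21, went the other way, at 67.1, 63.3, 139.8 and 175 CPM against 157, 137, 204 and 215 CPM, and fell by 0.80 (SE 0.14, edgeR adjusted p = 0.00273). Ccnd1 rose by 0.16 (SE 0.05, edgeR adjusted p = 0.03), a call that was lost when any 1 of the 4 replicates was left out, and Ccnd2 did not pass (log2 fold change -0.12, edgeR adjusted p = 0.479). The repressor factor E2f5 rose by 1.35 (SE 0.17).

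**Figure D4:**
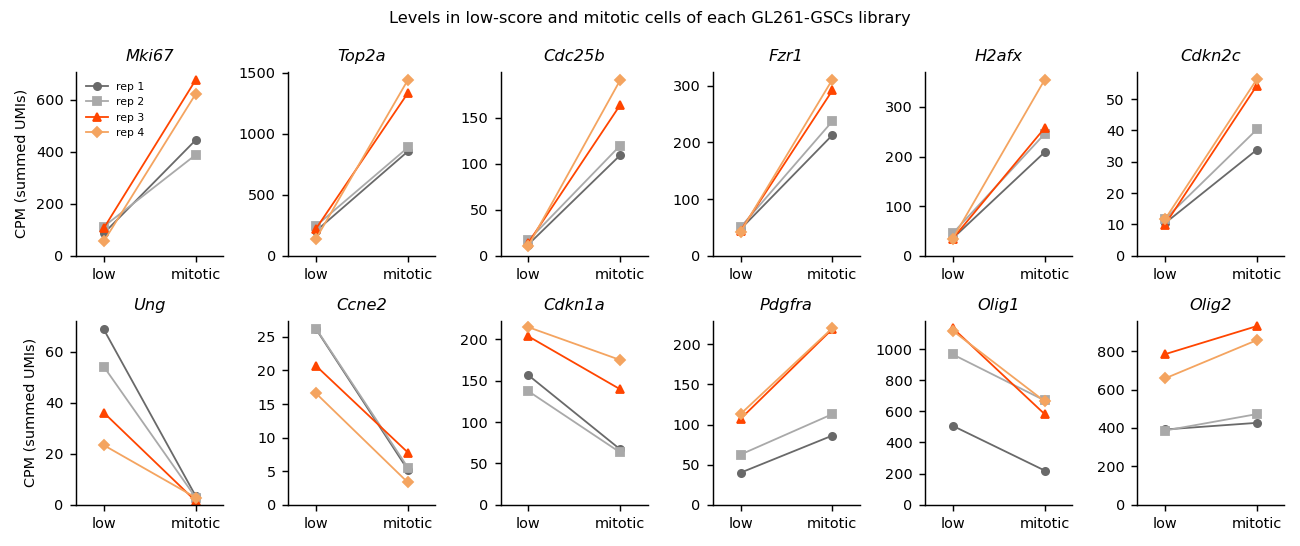
CPM of 12 named genes in low-score and mitotic cells of each GL261-GSCs library, 1 line per replicate, axes from 0. Mki67, Top2a, Cdc25b, Fzr1, H2afx, Cdkn2c and Pdgfra are higher in mitotic cells in 4 of 4 libraries, Olig2 is higher in 4 of 4 by a smaller amount, and Ung, Ccne2, Cdkn1a and Olig1 are lower in 4 of 4.

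Progenitor and stem genes as a list stayed near all genes: 3 of 16 tested rose and 3 fell (18.8% each, beside 16.0% of all genes), with a median of -0.02. Pdgfra, the receptor for platelet-derived growth factor of oligodendrocyte progenitors, stood at 86.2, 113, 219 and 220.2 CPM in mitotic cells and 39.9, 62.5, 107 and 113 CPM in low-score cells. It rose in 4 of 4 libraries, with a log2 fold change of 0.99 (SE 0.06, edgeR adjusted p = 1.10e-05), although values of different libraries overlapped. Pdgfra lies at chr5:75152292-75198215 (forward strand). Olig1 and Olig2, neighbouring oligodendrocyte lineage factors at chr16:91269772-91271933 (forward strand) and chr16:91225457-91228677 (forward strand), moved in opposite directions. Olig1 stood at 220.0, 669.8, 582 and 664 CPM against 507, 966, 1135 and 1117 CPM and fell by 0.86 (SE 0.09, edgeR adjusted p = 2.49e-04). Olig2 stood at 426, 472, 930.2 and 857 CPM against 392, 386, 784 and 658 CPM and rose by 0.26 (SE 0.05, edgeR adjusted p = 0.00662). Sox2 (-0.10, edgeR adjusted p = 0.435) and Nes (-0.09, edgeR adjusted p = 0.42) did not pass.

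Of 10 differentiation genes tested, 7 fell (70%) and 2 rose (20%), beside 16.0% of all genes in each direction, with a median of -0.45. Cnp and Mog, genes of myelin, fell, with log2 fold changes of -0.55 (SE 0.08) and -0.56 (SE 0.09). Those that rose were Tubb3, a neuronal tubulin, by 0.99 (SE 0.11) and Sox10, an oligodendrocyte lineage factor, by 0.29 (SE 0.05). Markers of other cell types were measured as summed levels. Over the 6 immune markers the summed level was 4.91 to 8.88 CPM in mitotic and 12.5 to 35.2 CPM in low-score cells. Cd68 held most of it, with 160 UMIs in mitotic and 2068 in low-score cells. These UMI sums cover 1489 mitotic and 7445 low-score cells, so they do not compare as levels, and the same holds for the UMI sums below. Ptprc, C1qa, Aif1 and Tyrobp had 0 UMIs in mitotic cells and 3, 0, 2 and 0 in low-score cells. The 1 immune marker tested, Cd68, a lysosomal protein, fell by 1.51 (SE 0.24). Endothelial markers summed to 0 to 0.867 CPM in mitotic and 0.413 to 0.885 CPM in low-score cells, with Cdh5 and Kdr at 0 in both. Fibroblast markers summed to 11.1 to 28.6 CPM (10.4 to 22.0 CPM in low-score cells). Dcn and Lum had 0 UMIs in mitotic and 21 and 1 in low-score cells. Astrocyte markers summed to 0 to 0.446 CPM in mitotic and 0 to 0.0344 CPM in low-score cells, with Aqp4 at 0 in both. The neuron pair, Tubb3 included, summed to 5.38 to 74.5 CPM (4.2 to 37.9 CPM in low-score cells), with Rbfox3 at 0 in both. The 1 fibroblast marker tested, the collagen gene Col1a1, rose by 0.47 (SE 0.13, edgeR adjusted p = 0.0202). Oligodendrocyte markers (Mog, Mag and Mobp) summed to 17.8 to 54.7 CPM in mitotic and 25 to 92.9 CPM in low-score cells.

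The largest falls by the rule for named genes were, besides Mcm6, Mcm4 and E2f1, in genes of other roles. Tcp11l2 stood at 8.78, 11.6, 12.5 and 9.94 CPM in mitotic cells and 26.5, 26.0, 63.0 and 96.6 CPM in low-score cells, a log2 fold change of -1.98 (SE 0.23, edgeR adjusted p = 3.47e-04). Lgals3, which encodes galectin-3, stood at 38.3, 14.2, 116 and 112 CPM against 61.2, 31.4, 367 and 326 CPM, with replicates 3 and 4 above replicates 1 and 2 in both groups. Within libraries it fell by 1.29 on the log2 scale (SE 0.14). Calcoco1 (-1.19), the p53 target and cell death gene Bbc3 (-1.13), the retrieval receptor Kdelr3 (-1.12), the inhibitor of differentiation Id3 (-1.11), the Myc antagonist Mxd4 (-1.08), the membrane glycoprotein Gpnmb (-1.07) and the immediate early factor Fos (-1.22) also fell. Tcp11l2, Lgals3, Calcoco1, Bbc3, Kdelr3, Id3, Mxd4, Gpnmb and Fos were highest, as a mean over libraries, in the first of 10 equal groups of cells by score, where Mxd4, for example, stood at a mean of 277 CPM against 91.3 in mitotic cells. Mcm6, Mcm4 and E2f1 were highest in the third, while in single libraries the highest group was the second to the sixth.

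Immediate early genes are the first answer to growth signals and stress. Of 19 tested 10 fell (52.6%) and 3 rose (15.8%), beside 16.0% of all genes in each direction, so the rises were near the share of all genes. The list median was -0.26 (-0.43 with the highest 5% of the score as mitotic cells and with cells thinned to 8000 UMIs). Fos stood at 35.3, 52.7, 33.0 and 42.1 CPM in mitotic cells and 111, 92.1, 92.1 and 77.3 CPM in low-score cells, and Dusp1, a phosphatase that ends the signal, at 17.0, 21.6, 49.0 and 63.9 CPM against 33.0, 40.6, 83.3 and 103 CPM. Dusp1 and the factor Klf2 fell, with log2 fold changes of -0.83 (SE 0.07) and -0.92 (SE 0.09), while Nr4a1 rose by 0.44, Ier5 by 0.60 and Ier3 by 0.27. Of 14 p53 target genes tested 4 fell (28.6%) and 2 rose (14.3%), beside 16.0% of all genes in each direction, with a median of -0.07 (-0.12 with library size scaling). Trp53inp1 and Gdf15 fell, with log2 fold changes of -1.81 (SE 0.18) and -1.33 (SE 0.20), and Aen and Plk2 rose by 0.33 and 0.28. Sterol synthesis genes had 5 of 21 higher (23.8%) and 1 lower (4.76%), beside the same 16.0%, with a median of 0.03 (Mvd -0.30). Of 14 hypoxia and glycolysis genes tested 0 passed with edgeR, at a median of -0.04. At an unadjusted p under 0.05 there were 1 higher and 2 lower, beside 5477 of all 12528 genes in either direction. DESeq2 called 0 and limma-voom 1 lower. Of 4 nuclear-retained RNAs tested 2 fell (50%, beside 16.0% of all genes) and 0 rose with edgeR. DESeq2 called 2 lower and 0 higher, and limma-voom 2 lower and 1 higher. At an unadjusted p under 0.05 edgeR had 1 higher and 2 lower. The edgeR log2 fold changes of those that fell were -0.54 (SE 0.06) for Neat1 and -0.50 (SE 0.14) for Mir99ahg. Malat1 did not pass (log2 fold change 0.19, edgeR adjusted p = 0.0607).

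Promoter elements were counted in windows from 250 bases before to 50 after the start in RefSeq (GRCm38.p6), on both strands. No motif overlap was removed. A CHR was present in 18.1% of all 27025 promoters and in 11.5% of the 9315 tested genes with a window. Among genes that rose by at least 2-fold it was in 90 of 186 (48.4%), against 14.4% of those that rose by less, 10.4% of genes not called, and 9.05% of those that fell by at least 2-fold. CHR and CCAAT together were in 37.6% of the genes that rose by at least 2-fold and in 4.88% of all tested genes. By list, a CHR was in 17 of 25 spindle genes (68.0%) and in 4 of 27 G1/S genes (14.8%). The E2F element was in 13 of 27 G1/S genes (48.1%) and 6 of 14 condensin, cohesin and topoisomerase genes (42.9%). It was in 3 of 25 spindle genes (12%) and 9.09% of all tested genes. Among genes that rose and genes that fell by at least 2-fold it was in 11.3% and 10.1%. A CCAAT box was in 16 of 25 spindle genes (64.0%), 17 of 27 G1/S genes (63.0%) and 39.8% of all tested genes. Of the rule's genes 7 of 8 hold a CHR and 8 of 8 a CCAAT, Ccnb1 being without a CHR in this window. These are letter matches in fixed windows, and 0 histone genes had a window.

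The same rule was applied to the GL261 libraries, which gave 798 mitotic and 3987 low-score cells. Whether the mitotic difference itself differed between the cultures was tested as an interaction over all 6 libraries, in a fit of its own, so its fold changes differ slightly from those above. Of 13783 genes tested, 163 (1.18%) passed an edgeR adjusted p of 0.05: 41 (0.297%) had a higher mitotic difference in GL261-GSCs and 122 (0.885%) a lower one. Scaling by library size alone moved the median difference of all genes from -0.03 to 0.07 and gave 55 higher and 47 lower. The split also moved with the filter and the cells: it was 384 higher and 154 lower with no low-count filter, and 99 higher and 97 lower with a minimum of 12000 UMIs. The calls rested on both GL261 libraries: without either 1 of them 2 genes passed.

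Medians of the spindle, checkpoint and G1/S lists lay close together in the cultures. The median log2 fold change of the spindle list was 2.55 in GL261-GSCs and 2.58 in GL261, that of the checkpoint list 1.44 and 1.47, and that of the G1/S list -0.54 and -0.58, with 0 interaction calls by edgeR in the spindle and checkpoint lists and 1 in the G1/S list. At an unadjusted p under 0.05 the spindle list held 3 of 29 and the checkpoint list 0 of 14, beside 1973 of all 13783 genes in either direction. DESeq2 and limma-voom called 0 in both lists. The mitotic entry list had medians of 1.62 in GL261-GSCs and 1.65 in GL261. In it 1 of 21 genes had a lower difference by edgeR, 0 by DESeq2 and 2 by limma-voom. Medians of the kinetochore list were 0.98 and 1.12, and those of the anaphase-promoting complex list 0.17 and 0.29, with 0 calls by edgeR. In the cytokinesis list edgeR called 0 and limma-voom 1 lower. Histones had medians of 0.75 and 0.33 with 0 calls by edgeR, DESeq2 and limma-voom. At an unadjusted p under 0.05, 6 of 17 were higher in GL261-GSCs and 0 lower, beside the same 1973 of 13783 in either direction. In the immediate early list 6 of the 20 genes tested in this fit were called by edgeR. Of these, 5 had a higher difference in GL261-GSCs (Egr1, Ier3, Dusp1, Ier2 and Nr4a1) and Klf4 a lower one. Over all genes 0.297% were higher and 0.885% lower. DESeq2 called 5 higher and 0 lower in this list, and limma-voom 5 higher and 1 lower. Over the 19 genes tested in both fits the list median was -0.30 in GL261-GSCs and -0.59 in GL261. All 6 rest on 2 GL261 libraries.

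A higher mitotic difference in GL261-GSCs was found for Timp3, an inhibitor of matrix proteases. It stood at 227, 254, 227 and 267 CPM and 203, 193, 181 and 216 CPM in mitotic and low-score cells of GL261-GSCs replicates 1 to 4 and at 1181 and 1890.1 CPM and 2702 and 3983 CPM in GL261. Its difference was 1.43 (SE 0.08, edgeR adjusted p = 7.46e-06), and in GL261 both mitotic values lay below both low-score values. Egr1 (difference 1.52), the growth factor Hbegf (1.27), H2afx (1.12) and Ier5l (1.09) followed. H2afx was higher in mitotic cells of both cultures, with log2 fold changes of 2.74 in GL261-GSCs and 1.62 in GL261. Thbs1, which encodes the matrix protein thrombospondin-1, had the largest difference by the rule for named genes, 2.10 (SE 0.23, edgeR adjusted p = 0.0028), but met the expression limit of that rule only through GL261, where it stood at 763 and 1097 CPM in mitotic and 1240.4 and 1503 CPM in low-score cells. In GL261-GSCs it was at 1.96, 4.44, 5.49 and 5.99 CPM and 0.460, 0.997, 2.53 and 2.84 CPM, levels that overlap those in free RNA of these libraries (0.396 to 5.38 CPM).

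A lower mitotic difference in GL261-GSCs was found for Erbb3, a neuregulin receptor. It stood at 72.3, 39.4, 36.0 and 48.9 CPM in mitotic and 104, 56.1, 81.8 and 114 CPM in low-score GL261-GSCs cells, and at 135 and 143 CPM and 97.0 and 116 CPM in GL261. The difference was -1.21 (SE 0.18, edgeR adjusted p = 0.0112). Id3, a target of BMP signals, had log2 fold changes of -1.15 in GL261-GSCs and 0.04 in GL261, a difference of -1.20 (SE 0.20). The gap junction gene Gja1 (-1.19), the sulfate transporter Slc26a2 (-1.24), Klf4 (-1.28) and the neurotrophin receptor Ngfr (-1.76) followed. Ngfr and Klf4, and Ier5l above by a small margin, also met the expression limit only through GL261, and Ngfr and Klf4 rest on 20 and 76 UMIs in mitotic GL261-GSCs cells. Sox2, which did not pass within GL261-GSCs, had a difference of -0.89 (SE 0.15, edgeR adjusted p = 0.0164), with GL261 values of 77.3 and 80.9 CPM in mitotic and 48.3 and 45.7 CPM in low-score cells.

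**Figure D5:**
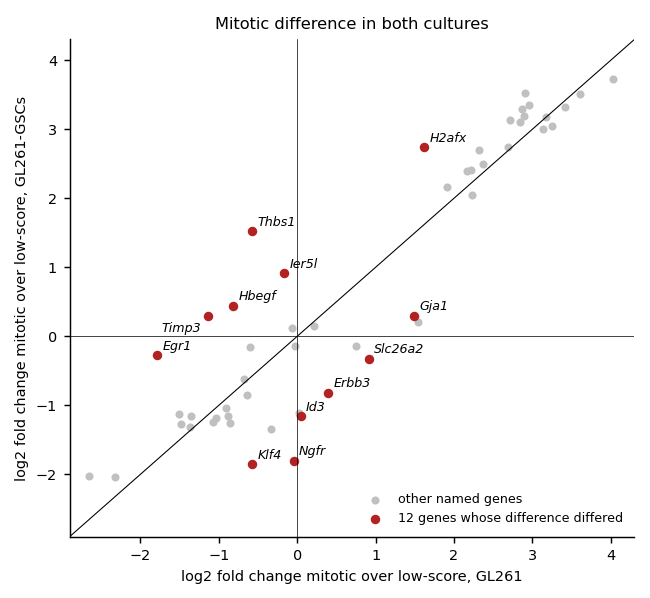
Log2 fold change of mitotic over low-score cells in GL261 (x) and GL261-GSCs (y) from the fit of all 6 libraries, with the line of equal change; red points are the 12 genes named for their interaction, grey points the other genes among the largest changes or the fixed names. Spindle genes lie near the line, and H2afx (2.74 against 1.62) and Gja1 (0.30 against 1.49) lie off it.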

How the data were processed

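The deposited matrices hold UMI counts per gene and barcode for 6 libraries, made with Cell Ranger 4 per the file headers and on mm10 per the submitters' processing notes. The sources used here do not state the alignment settings or the annotation release. Libraries held 80899005 to 121309232 UMIs, and samples were grouped by their titles. Of the 54446 listed gene identifiers, 54409 matched GENCODE M21 (GRCm38) without their version, which gave the coordinates, and 94 symbols occur more than once. The mitochondrial limit removed 0 to 11 barcodes per GL261-GSCs library. No doublet caller was run and no barcode was removed as a doublet.

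Counts were summed per library over mitotic cells (2241143 to 7058392 UMIs in GL261-GSCs) and over low-score cells (9808874 to 31632908) and tested with edgeR 4.0.16 (R 4.3.3, TMM, filterByExpr, quasi-likelihood test, library as a block, Benjamini-Hochberg adjustment, threshold 0.05). Both sums of a pair came from the same library, and their deviations from the group means correlated at 0.858, 0.774, 0.777 and 0.633 in replicates 1 to 4. Per-cell work used Python 3.11.15, numpy 2.4.6 and scipy 1.17.1. Thinning drew 8000 UMIs from each cell without replacement.

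Named genes were the 12 largest rises and 12 largest falls among called genes of 5 or more in average log2 CPM with 1 direction in 4 of 4 libraries (predicted, mitochondrial and rule genes left out), the 2 smallest p of each of 20 gene lists, a fixed list of cycle and glial genes, and the 6 largest interaction differences in each direction. Other genes are examples from the lists, chosen after their values were seen. The members and the lists were chosen with earlier results of these data known. Alternatives were DESeq2 1.42.0, limma-voom (limma 3.58.1), other scaling, filter, block, cell limits and score, and leaving out each library. On simulated counts with 200 of 12536 genes changed, edgeR found 93 of 100 genes changed by a log2 of 1 and 66 of 100 changed by 0.5, with 3 false among 162 calls. For the interaction (13791 genes) it found 70 and 31 of 100, with 3 false among 104 calls. The simulated counts gave all genes a common dispersion and each changed gene the same change in every library. For the mitotic comparison they also held far fewer changed genes than were called in the data. They therefore do not give the share of false calls in the data.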

Additional observations from a re-analysis of the deposited data

Results flagged for a closer look

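In 4 genes 1 GL261-GSCs library stood far from the other 3 in its log2 ratio of mitotic over low-score cells. These were Ung in replicate 4 (-2.84), Mir99ahg in replicate 2 (-0.12), Ccne2 in replicate 3 (-1.35) and Nes in replicate 1 (-0.41). Chance gives about 1 such library in 20 groups of 4, and 98 groups were looked at.

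For 17 of the named genes the mitotic difference itself differed between GL261-GSCs and GL261 by the interaction test (edgeR, adjusted p under 0.05), with the values given as GL261-GSCs minus GL261 on the log2 scale. It was higher in GL261-GSCs for Egr1 (1.52), Timp3 (1.43), Hbegf (1.27), H2afx (1.12), Ier5l (1.09), Dusp1 (0.77) and Thbs1 (2.10). It was lower in GL261-GSCs for Ngfr (-1.76), Ung (-1.65), Klf4 (-1.28), Slc26a2 (-1.24), Erbb3 (-1.21), Id3 (-1.20), Gja1 (-1.19), Lgals3 (-1.0), Sox2 (-0.89) and the cyclin D kinase inhibitor Cdkn2d (-0.77). Thbs1, Ngfr and Klf4 were low in GL261-GSCs, and these and Ier5l met the expression limit for named genes only through GL261. Ung was low in mitotic GL261-GSCs cells, so its difference rests on few UMIs as well. Of the 17, 12 were named because they passed this same test, so their calls were set by the choice of names. Ung, Lgals3, Sox2, Cdkn2d and Dusp1 were named on other grounds. Over all 13783 genes tested 163 (1.18%) passed. The differences of all 17 rest on 2 GL261 libraries.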

How the results depend on the processing

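The count of 4018 genes changed between mitotic and low-score cells was 447 with no replicate block and 2042 to 3907 when 1 library was left out. It lay between 2803 and 4759 under the other 10 alternatives. The interaction count of 163 was 0 with no replicate block (330 genes at an unadjusted p under 0.05), 100 with DESeq2, 102 with library size scaling, 538 with no low-count filter, 108 with the highest 5% of the score and 54 with cells thinned to 8000 UMIs. It was 2 to 396 when 1 library was left out, with 2 without either GL261 replicate, 39 without GL261-GSCs replicate 3 and 396 without replicate 4. The values with no replicate block set whole libraries against each other, and the cause of the other shifts was not tested. Across the 73 named genes 895 alternative values kept their direction and side of the threshold, 42 in 22 genes no longer passed (22 of them with no replicate block) and 10 in 3 genes newly passed. Sox2 and Nes, which did not pass, changed sign: when 1 library was left out Sox2 ran from -0.17 to 0.00833 (without replicate 4) and Nes from -0.14 to 0.024 (without replicate 1). Over the alternatives 252 list medians stayed within their spread between libraries and 8, of 4 lists, moved beyond it. Mitotic ratios of low genes, such as Ung, are limited by their few UMIs.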

Other observations

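The median mitochondrial share in GL261 was 0.923% ± 0.0110 (SD, n = 2) in mitotic and 0.938% ± 0.0339 in low-score cells, a difference of -0.0148 percentage points. That difference was -0.0442 with the highest 5% of the score, -0.0331 with the score of 4 genes and 0.00658 with a minimum of 12000 UMIs, and it was not tested against GL261-GSCs. At 8000 UMIs the median mitotic GL261 cell had 3132 ± 8.13 genes and the median low-score cell 3178.5 ± 9.19, so that mitotic GL261 cells had fewer genes in both libraries, where mitotic GL261-GSCs cells had 34.1 more on average (21.2 without replicate 3), with fewer in replicate 1. This difference between the cultures was not tested.

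S100b, a calcium-binding protein of glia, and Hsd17b7, an enzyme of sterol synthesis, were chosen after their values were seen. S100b stood at 87.3, 64.3, 65.5 and 75.3 CPM in mitotic and 101, 77.1, 99.8 and 123 CPM in low-score GL261-GSCs cells of replicates 1 to 4, and at 62.0 and 56.4 CPM against 45.8 and 39.4 CPM in GL261. Its mitotic difference was lower in GL261-GSCs by a log2 value of -0.95 (SE 0.14, edgeR adjusted p = 0.0122). Hsd17b7 went the other way, at 50.7, 54.9, 69.3 and 66.3 CPM against 40.4, 42.0, 50.4 and 61.2 CPM in GL261-GSCs and 18.4 and 16.9 CPM against 22.0 and 22.6 CPM in GL261, with a difference of 0.63 (SE 0.13, edgeR adjusted p = 0.045).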
